A study of Mus musculus with 9 samples.

Results

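The comparison described here set RNA from lymphatic endothelial cells (LECs) of the meninges, the membranes around the brain, against RNA from LECs of the skin, gene by gene and library by library. All expressed genes were taken, from the 3 meningeal and 3 skin libraries, 6 of the 9 libraries in the study. The other 3, from the diaphragm, entered the model to estimate the spread. Of 23018 genes in the count table, 14831 had enough counts to be tested. All 3 groups came from untreated wild-type male mice of the C57Bl6 background, aged 10 weeks. No group carried a transgene or received an agent. Cells were sorted by flow cytometry as CD45-CD31+PDPN+, that is without the pan-leukocyte antigen CD45 (encoded by Ptprc) and with both CD31 (Pecam1) and podoplanin (Pdpn). RNA was taken up with a kit for small samples and amplified before the libraries were made. The labels do not say whether a tissue's 3 libraries are from different animals or from pools, so the p-values below measure only the spread between these libraries, which may be technical.

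Lymphatic endothelium lines the vessels that return tissue fluid, antigens and migrating immune cells to lymph nodes and blood. The transcription factor PROX1 specifies and maintains this fate, and the receptor VEGFR3 (Flt4) carries the growth signal of VEGF-C. In the dura, the outer meningeal layer, lymphatic vessels run along the venous sinuses and drain cerebrospinal fluid components towards the cervical lymph nodes. Blind-ended initial lymphatics carry the hyaluronan receptor LYVE1, while collecting vessels have valves and a mural coat.

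The sorted cells were first checked against 14 genes that define LECs. Prox1 was at 1332, 716 and 1212 CPM, which are counts per 1000000 of the library's scaled size, in Meninges 1, 2 and 3, and at 2042, 1799 and 1948 CPM in Skin 1, 2 and 3. All values below are CPM in this order of libraries unless a log2 fold change is named, and levels of different genes are not compared, since CPM is not corrected for gene length. Flt4 stood at 3338, 1353 and 2467 CPM in meninges and 3646, 3585 and 3093 CPM in skin, and Mmrn1, a secreted multimerin of LECs, at 4469, 1916 and 3321 and 4371, 4780 and 4821 CPM. For both of them Meninges 1 was within the range of skin and Meninges 2 was the lowest of the 6. Pdpn, a gate gene, ran from 90.3 to 183 CPM in meninges and from 117 to 191 CPM in skin, and Pecam1, the other, was at 553, 218 and 504 and 816, 637 and 949 CPM. The leukocyte gene Ptprc was at 2.69, 3.53 and 0.0793 CPM in meninges and 0, 2.03 and 0.0914 CPM in skin. Ccl21a, the chemokine that LECs use to attract dendritic cells, was the exception among the 14, at 1.35 CPM or less in each library. Ccl21a has near-identical gene copies, and the counting of reads that match several genes is not described in the sources used here, which leaves its level uncertain. The defining markers other than Ccl21a were thus present in all 6 libraries, with the lowest sum in Meninges 2, 7829 CPM, where the sum of fibroblast markers was the highest, 11648 CPM.

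Total counts were 26516385 to 34592850 in the meningeal and 26619515 to 28094215 in the skin libraries. At least 1 count was seen for 16412 to 17245 genes in the meningeal and 13241 to 15550 genes in the skin libraries. The mitochondrial ribosomal RNAs took 10.8% to 22.9% of counts in meninges and 27.0% to 30.8% in skin.

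The meningeal libraries differed among themselves, which bears on many of the results below. The 14 LEC genes summed to 18471, 7829 and 13725 CPM in Meninges 1, 2 and 3, against 23302, 22238 and 22759 CPM in Skin 1, 2 and 3. The 21 genes of a fibroblast marker list summed to 2571, 11648 and 11167 CPM in meninges and 602, 1995 and 1664 CPM in skin. Fibroblast transcripts were thus highest in Meninges 2 and 3, while Meninges 1 lay above the 3 skin libraries by a smaller margin. Sums of 15 mural cell markers were 584, 1146 and 1435 and 131, 55.3 and 331 CPM, and sums of 14 bone and cartilage markers 215, 1266 and 743 and 7.86, 78.3 and 171 CPM, again with Meninges 1 the lowest of the meningeal libraries and above each skin library. Choroid plexus markers, 23 genes with Aqp1, Enpp2 and Ttr at the highest levels, summed to 2371, 1659 and 1856 CPM in meninges against 81.8, 248 and 164 CPM in skin. Without Aqp1, which blood capillaries also express, the sums were 1191, 1124 and 1105 CPM in meninges and 51.3, 145 and 93.3 CPM in skin, nearly even over the meningeal libraries. Leukocyte markers, 22 genes, summed to 63.4, 98.3 and 81.6 and 0.813, 45.6 and 12.5 CPM, and 17 keratinocyte markers to 68.2, 127 and 97.7 and 177, 689 and 229 CPM. The integrin gene Itgb4, on the keratinocyte list, was alone at 46.5, 16.6 and 41.6 and 176, 244 and 219 CPM. It made up nearly all of the keratinocyte sum in Skin 1 and Skin 3, so the higher sums there rest on this gene. Skin 2 held the highest keratinocyte sum, with Krt14 at 0, 107 and 0 CPM in skin. Results on genes of these lists are given below with the values of Meninges 1 beside those of Meninges 2 and 3. In bulk RNA, fewer cells of a type and less RNA per cell cannot be told apart.

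**Figure D1:**
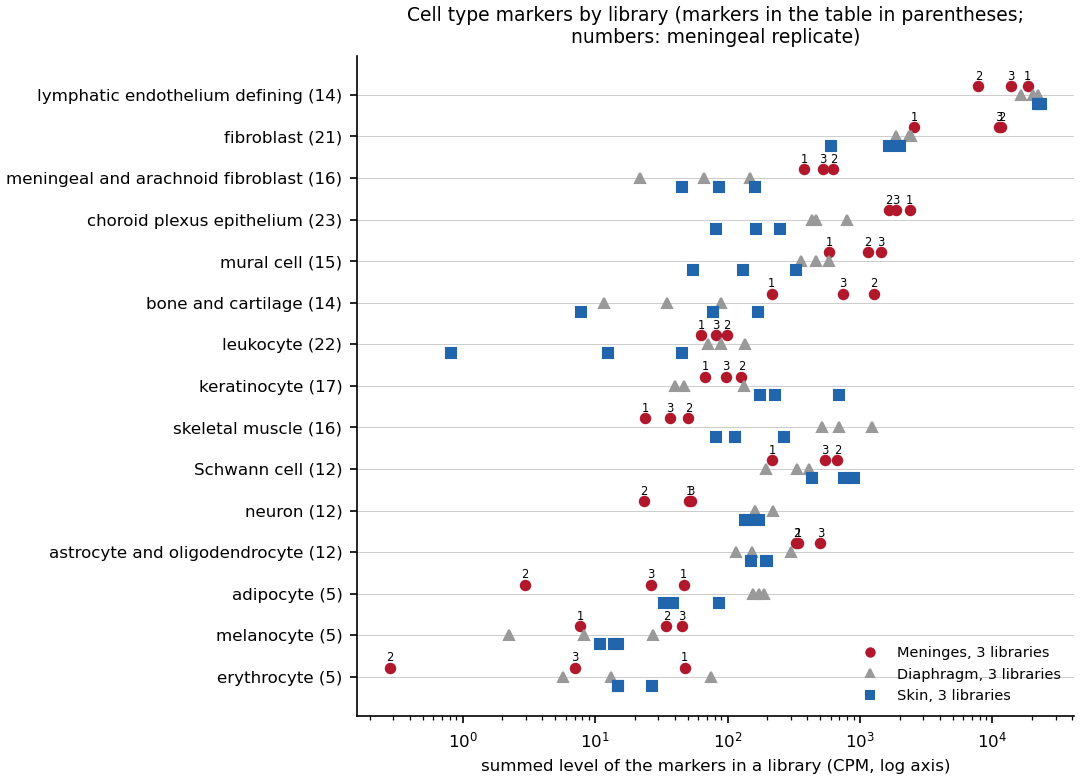
Summed level of the markers of 15 cell types in each library, in CPM on a log axis, with circles for meninges (numbered by replicate), triangles for diaphragm and squares for skin. LEC-defining genes sum to between 7829 and 18471 CPM in meninges and are higher in each skin library, while fibroblast markers reach 11648 CPM in Meninges 2 against 2571 CPM in Meninges 1.

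Across all genes, 111 of 14831 were higher in meninges than in skin (0.748% of the genes tested) and 85 were lower (0.573%), at an edgeR adjusted p under 0.05. The words higher, lower, rose and fell are used below for such genes. The spread between libraries was large, with a biological coefficient of variation of 1.243, so that mainly large differences passed. The 3 meningeal and 3 skin values did not overlap in 195 of the 196 called genes, the exception being Meninges 1 for Col3a1. The same held for 20.2% of all genes tested, 1909 with meninges above skin and 1088 with meninges below. Non-overlap among called genes follows largely from the test that chose them. The median log2 fold change over all genes tested was 0.08, and 52.2% of the genes had a positive one. Of the genes called higher, 31 had no count in any skin library, and 6 of these had none in the diaphragm either. Of those called lower, 2 had no count in meninges.

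**Figure D2:**
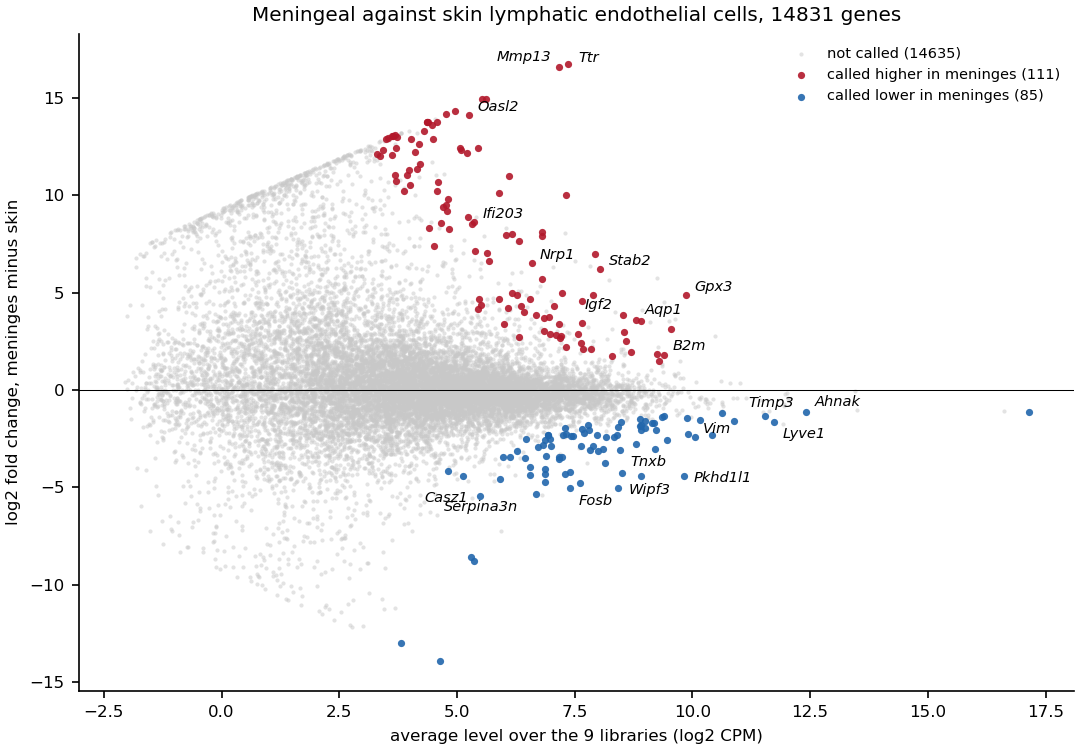
Log2 fold change, meninges minus skin, of 14831 genes against their average level over 9 libraries in log2 CPM, with 111 genes called higher in red and 85 called lower in blue. The highest called genes lie on the left at low to middle levels, many of them without a count in skin, and most genes called lower lie at middle to high levels.

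How far each call rested on single libraries was checked by leaving out each of the 9 in turn. In all 9 fits 30 of the 111 higher and 33 of the 85 lower genes stayed called, and 47 and 33 of them stayed called in 5 fits or fewer. Each gene named below whose call was lost in such a fit is given with the libraries concerned. With Meninges 1 as the only meningeal library, a fit added after the data were seen, 27 of the 111 and 20 of the 85 genes were still called. The median log2 fold change over all genes tested was -0.20 in that fit, the value beside which the list medians from it are to be read.

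The lymphatic programme itself was lower in meninges for a few named genes. Among the 14 LEC-defining genes none rose and Lyve1 fell, and 13 of the 14 had a negative log2 fold change (median -0.53, against 0.08 for all genes tested). With Meninges 1 as the only meningeal library the medians were -0.08 and -0.20, so that the list no longer lay under all genes. Lyve1 was at 2619, 909 and 1287 CPM in meninges and 5125, 4820 and 4926 CPM in skin (log2 fold change -1.63, standard error 0.34, adjusted p = 0.0326), each meningeal library lying under each skin library. The call of Lyve1 was lost without Meninges 2, Meninges 3, Skin 1 or Skin 3, where the adjusted p reached 0.133. Reln, a secreted glycoprotein of LECs, was at 2638, 1143 and 2013 and 4336, 3889 and 4057 CPM without passing the test (adjusted p = 0.0788), and Prox1 did not pass either (log2 fold change -0.83, adjusted p = 0.178).

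Of 25 transcription factors of lymphatic fate tested, 2 fell, none rose, and 23 had a negative log2 fold change (median -0.82). With Meninges 1 as the only meningeal library their median was -0.83, against -0.20 for all genes tested. Casz1, a zinc finger factor of vessel assembly, was at 2.19, 3.69 and 1.22 CPM in meninges and 108, 43.2 and 160 CPM in skin (log2 fold change -5.45, standard error 1.05, adjusted p = 0.020). Klf4, a flow-responsive factor of quiescent endothelium, was at 66.8, 18.2 and 60.3 and 521, 396 and 159 CPM (log2 fold change -2.89, standard error 0.59, adjusted p = 0.0277). Each meningeal library lay under each skin library for both genes. The call of Casz1 was lost without Meninges 1, Meninges 2, Meninges 3 or Skin 3 (adjusted p up to 0.0972), and that of Klf4 without Meninges 2, Meninges 3 or Skin 1 (up to 0.0893). Nr2f2, which encodes COUP-TFII, the partner of PROX1 in venous-derived lymphatic endothelium, was at 284, 164 and 266 and 657, 524 and 703 CPM and just missed the test (log2 fold change -1.40, adjusted p = 0.0554). The sum of LEC-defining genes was lowest in the same library, Meninges 2, in which Klf4 and Nr2f2 were lowest, and the part of the cell mixture in these values was not tested.

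Among 24 tested genes for lymphatic surface and secreted proteins, 4 fell and 1 rose (median -0.53, or -0.50 with Meninges 1 as the only meningeal library). Fgl2, a fibrinogen-like protein with immunoregulatory roles, was at 514, 253 and 413 CPM in meninges and 1985, 1662 and 2177 CPM in skin (log2 fold change -2.30, standard error 0.32, adjusted p = 0.00373), and it stayed lower without any single library. Clca3a1, a chloride channel accessory protein used as a lymphatic surface marker, was nearly lost from the meningeal libraries, at 35.6, 3.59 and 10.7 against 495, 377 and 748 CPM (log2 fold change -5.02, standard error 0.73, adjusted p = 0.00542). Clca3a1 has close paralogs, and its count is uncertain for the same reason as that of Ccl21a. The tetraspanin Cd9 was at 58.7, 42.8 and 47.9 and 242, 229 and 276 CPM (log2 fold change -2.32, standard error 0.38, adjusted p = 0.0103), and its call was lost without Meninges 3 (adjusted p = 0.0561). The member that rose was Ptx3, a secreted pattern-recognition pentraxin, at 151, 26.3 and 156 CPM in meninges against 0, 1.46 and 1.92 CPM in skin (log2 fold change 6.62, standard error 1.38, adjusted p = 0.0313). Meninges 2 was the lowest meningeal library for Ptx3, and its call was lost without Meninges 1, Meninges 3, Skin 2 or Skin 3 (adjusted p up to 0.104).

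Genes of collecting vessels and valves gave 3 lower and no higher members of 27 tested (median -0.52). Efnb2, the ephrin ligand that valve and arterial endothelium carries, was at 43.9, 60.4 and 36.3 CPM in meninges and 275, 441 and 519 CPM in skin (log2 fold change -3.14, standard error 0.41, adjusted p = 0.00232). Sema3a, a semaphorin needed for valve formation, was at 92.0, 66.4 and 99.6 and 346, 443 and 559 CPM (log2 fold change -2.39, standard error 0.35, adjusted p = 0.00561). Dtx1, a ubiquitin ligase of the NOTCH pathway, was at 23.4, 17.3 and 27.4 and 225, 245 and 255 CPM (log2 fold change -3.41, standard error 0.44, adjusted p = 0.00220). The 3 genes stood apart between the tissues in each library, and each stayed called in all 9 fits that left out 1 library. Foxc2, the forkhead factor of valve development, was at 0.720, 10.1 and 24.2 and 71.5, 51.8 and 97.0 CPM, also without overlap, but did not pass (adjusted p = 0.302).

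Pkhd1l1, a large fibrocystin-like membrane protein, had 112, 26.2 and 62.6 CPM in meninges and 1426, 1160 and 1650 CPM in skin (log2 fold change -4.40, standard error 0.46, adjusted p = 0.000852) and 1381, 1182 and 1088 CPM in the 3 diaphragm libraries. It was called in each of the 9 fits, and the diaphragm libraries overlapped with skin.

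Scavenger and hyaluronan receptors included members that moved in both directions. Of 32 tested, 2 rose and 1 fell, the latter being Lyve1 (median 1.04). Stab2, which encodes stabilin-2, the endocytic receptor that clears hyaluronan in liver and lymph node sinuses, had 796, 694 and 559 CPM in Meninges 1, 2 and 3 against 12.2, 4.55 and 10.97 CPM in Skin 1, 2 and 3 (log2 fold change 6.21, standard error 0.75, adjusted p = 0.00186). The meningeal libraries were close to each other and far above skin, and the call held in each of the 9 fits. Mrc1, the mannose receptor CD206 of LECs and macrophages, had 492, 392 and 510 and 116, 105 and 187 CPM (log2 fold change 1.77, standard error 0.34, adjusted p = 0.0197). The call of Mrc1 was lost without Meninges 3, Skin 1 or Skin 2 (adjusted p up to 0.0914). Stab1, the paralog of Stab2, was at 1148, 538 and 730 and 377, 290 and 350 CPM, without overlap and without passing the test (adjusted p = 0.0789). The macrophage markers Cd68 and Csf1r were at 0.0313, 3.69 and 0.0529 and 1.31, 3.78 and 4.86 CPM in the meningeal and at 0, 3.69 and 0 and 0.0774, 3.49 and 0.731 CPM in the skin libraries. Among endocytic and lysosomal genes, 1 of 41 tested rose and none fell (median 0.73), the protease cathepsin D, Ctsd, at 847, 642 and 940 against 159, 184 and 85.8 CPM (log2 fold change 2.50, standard error 0.38, adjusted p = 0.00667), in all 9 fits.

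The main receptors of lymphatic growth signals did not pass the test, while 3 genes around them did. Of 29 tested genes of lymphatic growth, 2 rose and 1 fell (median 0.80). Flt4 was not called (log2 fold change -0.53, adjusted p = 0.478), nor was Kdr, the gene of VEGFR2, at 548, 261 and 443 and 763, 535 and 563 CPM (adjusted p = 0.497). Nrp1, a coreceptor for VEGF-A and class 3 semaphorins that is better known from blood endothelium, was at 133, 177 and 170 CPM in meninges and 0, 2.96 and 2.24 CPM in skin (log2 fold change 6.53, standard error 1.28, adjusted p = 0.0219). Nrp2, the coreceptor of LECs, was at 1265, 845 and 1192 and 888, 563 and 450 CPM and did not pass (adjusted p = 0.256). The call of Nrp1 was lost without Meninges 2, Meninges 3 or Skin 3 (adjusted p up to 0.0783). Esm1, the secreted proteoglycan endocan of tip cells, was at 69.7, 97.6 and 75.5 CPM in meninges and had no count in skin. Against a floor of 3 counts over the 3 skin libraries Esm1 was higher by at least 10.93 on the log2 scale (adjusted p = 0.0181), a call lost without Meninges 2 or Meninges 3 (up to 0.0618). The member that fell was Ackr3, a scavenging receptor for CXCL12 and adrenomedullin, at 11.6, 1.06 and 8.99 against 172, 234 and 157 CPM (log2 fold change -4.70, standard error 0.74, adjusted p = 0.00813), in all 9 fits. The growth factor Vegfc itself was low, at 10.5, 8.22 and 13.3 CPM in meninges and 0, 0 and 0.0457 CPM in skin, and was not called (adjusted p = 0.0805).

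Genes of the insulin-like growth factor axis were higher in meninges for 5 of 21 tested members and lower for none (median 2.09). Igf2, the fetal growth factor, had 579, 707 and 1216 CPM in meninges against 75.3, 51.4 and 47.6 CPM in skin (log2 fold change 3.84, standard error 0.45, adjusted p = 0.00186). H19, the noncoding RNA imprinted next to it, had 212, 470 and 481 and 27.2, 4.34 and 4.71 CPM (log2 fold change 5.0, standard error 0.75, adjusted p = 0.00665). Igf2 and H19 were called in all 9 fits, and for both the lowest meningeal library, Meninges 1, lay well above the highest skin library. Among the binding proteins Igfbp7 was at 420, 365 and 436 and 55.8, 55.8 and 56.4 CPM (log2 fold change 2.86, standard error 0.54, adjusted p = 0.0177) and Igfbp4 at 388, 380 and 577 and 61.5, 98.8 and 150 CPM (log2 fold change 2.11, standard error 0.42, adjusted p = 0.0251). The insulin receptor, Insr, was at 416, 167 and 178 and 55.9, 38.0 and 24.3 CPM (log2 fold change 2.69, standard error 0.59, adjusted p = 0.0414), with Meninges 1 the highest. The calls were lost for Igfbp7 without Meninges 3, Skin 1 or Skin 3 (adjusted p up to 0.0752), for Igfbp4 without Meninges 2, Meninges 3, Skin 1 or Skin 2 (up to 0.136) and for Insr without Diaphragm 2, Meninges 1, Meninges 2, Meninges 3, Skin 1, Skin 2 or Skin 3 (up to 0.155). Igf1 was at 75.2, 1105 and 877 CPM in meninges and 19.1, 91.4 and 218 CPM in skin, with Meninges 1 inside the range of skin, and was not called (adjusted p = 0.187). When Meninges 1 was the only meningeal library the median of the 21 genes was 0.87.

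Genes known from blood endothelium were the list with the most calls: 7 of 35 tested rose and 4 fell (median 2.31). Aqp1, a water channel of capillaries, had 1180, 535 and 752 CPM in meninges against 30.5, 103 and 71.2 CPM in skin (log2 fold change 3.59, standard error 0.48, adjusted p = 0.00257). Plvap, the diaphragm protein of fenestrae and transcytotic vesicles, had 314, 117 and 212 and 4.64, 14.2 and 13.4 CPM (log2 fold change 4.32, standard error 0.67, adjusted p = 0.00743). Both were highest in Meninges 1, the meningeal library with the lowest fibroblast sum, and both were called in all 9 fits. Sox17, an arterial transcription factor, was at 30.0, 27.1 and 51.6 CPM and Abcb1a, the P-glycoprotein pump of brain capillaries, at 65.6, 25.8 and 42.9 CPM in meninges, and neither had a count in skin. They were higher by at least 9.81 and 10.07 on the log2 scale (adjusted p = 0.0283 and 0.0338), and both calls were lost without Meninges 1, Meninges 2, Meninges 3, Skin 1, Skin 2 or Skin 3 (up to 0.132 and 0.0850). Nrp1, Esm1 and Insr, described above, are the other members that rose. Those that fell were Efnb2, Bmx, Emcn and Cav1. Bmx, an arterial tyrosine kinase, was at 10.4, 1.97 and 1.56 CPM in meninges against 95.9, 107 and 127 CPM in skin (log2 fold change -4.56, standard error 0.91, adjusted p = 0.0254). Emcn, the sialomucin endomucin of veins and capillaries, was at 135, 47.5 and 74.0 and 374, 318 and 319 CPM (log2 fold change -1.98, standard error 0.42, adjusted p = 0.0343). Cav1, the coat protein of caveolae, was at 203, 90.9 and 166 and 485, 511 and 378 CPM (log2 fold change -1.58, standard error 0.34, adjusted p = 0.0360). Calls were lost for Bmx without Meninges 2, Meninges 3 or Skin 3 (adjusted p up to 0.104), for Emcn without Meninges 2, Meninges 3, Skin 1, Skin 2 or Skin 3 (up to 0.164) and for Cav1 without Diaphragm 2, Diaphragm 3, Meninges 2, Meninges 3, Skin 1, Skin 2 or Skin 3 (up to 0.119). The list thus moved in both directions, and arterial genes stood among both the higher (Sox17) and the lower (Efnb2, Bmx) members. The median over the list was 2.55 with Meninges 1 as the only meningeal library.

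**Figure D3:**
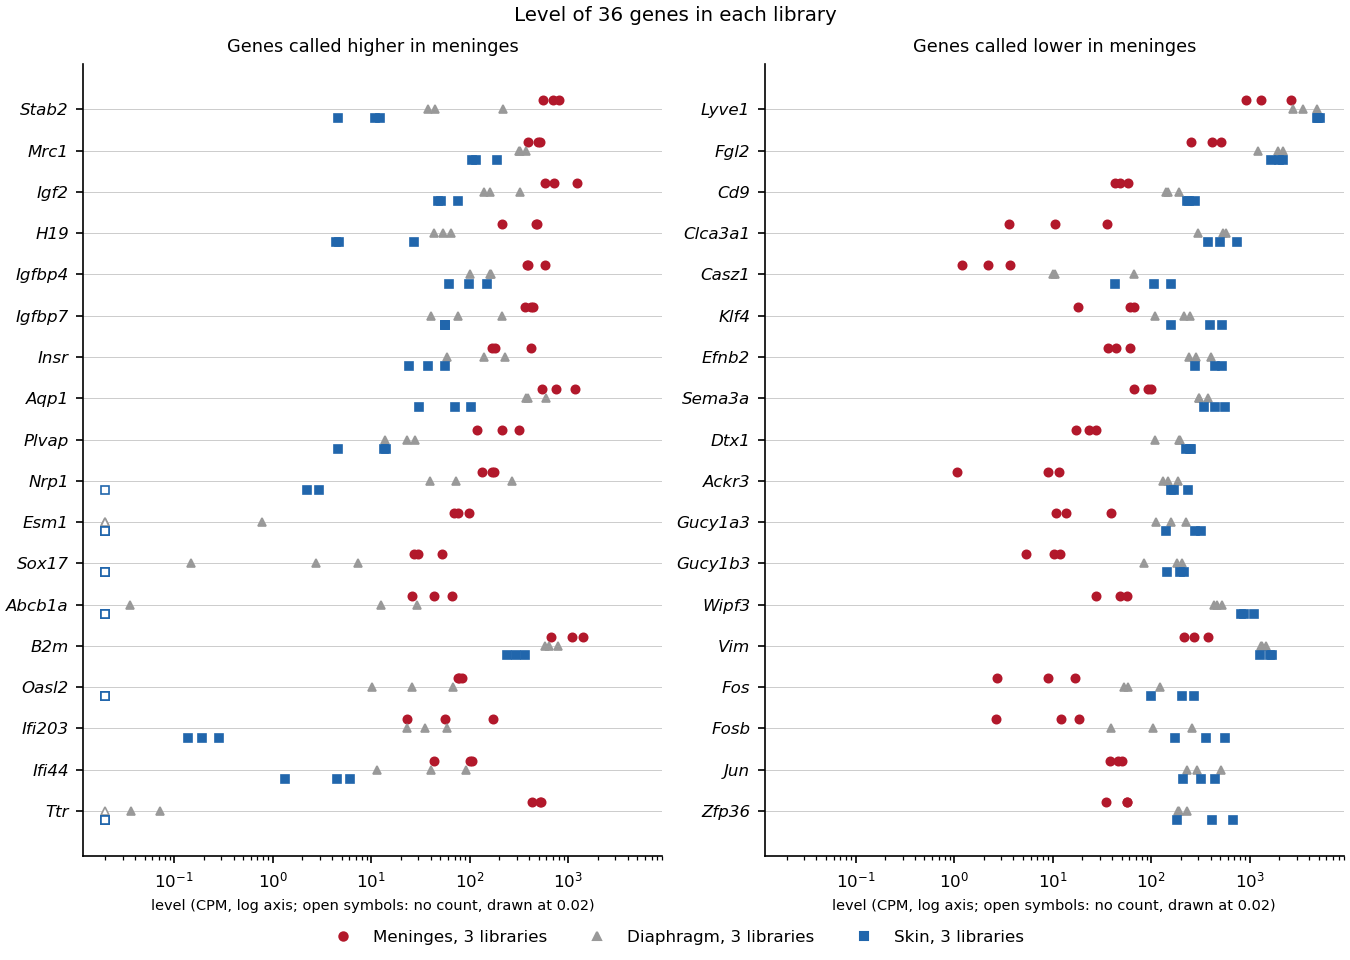
Level of 36 called genes in each library, in CPM on a log axis, with 18 genes called higher in meninges on the left and 18 called lower on the right. Circles are the 3 meningeal, triangles the 3 diaphragm and squares the 3 skin libraries, and open symbols mark libraries without a count. Circles and squares do not overlap for these genes, which were chosen from the test of the same libraries, and for Insr, Aqp1, Abcb1a, B2m, Ifi203 and Ifi44 a triangle lies within the range of the circles.

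Interferon response genes and antigen presentation genes were mostly on the positive side, with few calls. Of 58 interferon response genes tested, 51 had a positive log2 fold change (median 1.49), 3 rose and none fell. Of 30 antigen presentation genes tested, 27 had a positive one (median 1.41), 1 rose and none fell. With Meninges 1 as the only meningeal library the medians were 1.57 and 1.22. Oasl2, an oligoadenylate synthetase-like antiviral protein, had 83.8, 76.6 and 77.6 CPM in meninges and no count in skin, at least 10.90 higher on the log2 scale (adjusted p = 0.00208). Ifi203, a nuclear sensor of the p200 family, had 173, 23.2 and 55.6 and 0.193, 0.284 and 0.137 CPM (log2 fold change 8.64, standard error 1.14, adjusted p = 0.00232). The p200 genes are near-identical copies, so the count of Ifi203 is uncertain. Ifi44 had 102, 42.9 and 106 and 4.53, 6.09 and 1.33 CPM (log2 fold change 4.39, standard error 0.96, adjusted p = 0.0421). Oasl2 was even across the meningeal libraries while Ifi203 was highest in Meninges 1, and both were called in all 9 fits. The call of Ifi44 was lost without Diaphragm 3, Meninges 1, Meninges 2, Meninges 3, Skin 1, Skin 2 or Skin 3 (adjusted p up to 0.153). Ifitm3, an antiviral membrane protein, was not called, at 264, 236 and 284 and 404, 357 and 399 CPM, with each meningeal library under each skin library (adjusted p = 0.513).

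B2m, the light chain of MHC class I, had 1402, 666 and 1101 CPM in meninges against 241, 360 and 296 CPM in skin (log2 fold change 1.82, standard error 0.33, adjusted p = 0.0145). Each meningeal library lay above each skin library. The call of B2m was lost without Meninges 3, Skin 1 or Skin 3 (adjusted p up to 0.0645). The class I heavy chain gene H2-K1 was at 411, 332 and 319 and 127, 133 and 136 CPM, also apart, and just missed the test (log2 fold change 1.42, adjusted p = 0.0542). H2-D1, another heavy chain gene, was at 283, 292 and 266 and 199, 164 and 67.2 CPM (adjusted p = 0.302). The 2 heavy chain genes resemble each other and other class I genes, and their counts are uncertain. The promoter of B2m is shown because it holds the interferon-stimulated response element, 2 copies of GAAA with any 2 bases between them, in the 200 bases before the RefSeq start (chr2:122147487-122147686, plus strand, GRCm38.p6). Capitals mark the match, which begins 139 bases before the start.

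B2m: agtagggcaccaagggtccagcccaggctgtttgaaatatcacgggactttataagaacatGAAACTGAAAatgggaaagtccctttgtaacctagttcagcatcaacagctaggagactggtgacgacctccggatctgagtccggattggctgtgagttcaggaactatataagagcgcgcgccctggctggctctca

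On either strand this element was found in 2.98% of 32851 RefSeq promoters, searched over the 250 bases before the start. It was found in 1 of the 3 interferon response genes that rose, Ifi203, and not in the windows of Oasl2 or Ifi44. Called genes were counted per gene over all their promoters, of which Ifi203 has 2, whereas the share of 2.98% is per promoter. A match describes the letters and shows no binding.

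Immediate early genes, which are transcribed within minutes of a stimulus and also of tissue dissociation, were the list with the most members that fell. Of 45 tested, 7 fell and 1 rose, 30 had a negative log2 fold change, and the median was -0.83. Fosb, an AP-1 subunit, was at 2.69, 18.5 and 12.1 CPM in meninges against 364, 555 and 175 CPM in skin (log2 fold change -5.04, standard error 0.85, adjusted p = 0.0110). Fos and Jun, which also encode AP-1 subunits, were at 2.75, 16.9 and 8.96 and 38.3, 50.9 and 45.8 CPM in meninges against 207, 273 and 101 and 323, 440 and 210 CPM in skin (log2 fold changes -4.34 and -2.85, standard errors 0.74 and 0.43, adjusted p = 0.0117 and 0.00688). Zfp36, which encodes the mRNA decay protein tristetraprolin, was at 57.1, 34.4 and 56.8 and 412, 678 and 183 CPM (log2 fold change -3.10, standard error 0.48, adjusted p = 0.00743). For all 4 the skin libraries were ordered alike, Skin 2 highest and Skin 3 lowest, and the lowest skin library still lay above the highest meningeal one. The calls of Fosb, Jun and Zfp36 held in each of the 9 fits, and that of Fos was lost without Meninges 3 (adjusted p = 0.0553). Dusp1, a phosphatase of MAP kinases, was at 328, 131 and 242 and 865, 1373 and 482 CPM (log2 fold change -1.96, standard error 0.44, adjusted p = 0.0484), and Klf6 at 273, 313 and 393 and 806, 854 and 871 CPM (log2 fold change -1.37, standard error 0.28, adjusted p = 0.0275). Klf4 is the remaining member that fell. The call of Dusp1 was lost without Diaphragm 2, Diaphragm 3, Meninges 2, Meninges 3, Skin 1 or Skin 2 (adjusted p up to 0.162), and that of Klf6 without Meninges 1, Meninges 2, Meninges 3, Skin 1, Skin 2 or Skin 3 (up to 0.0946). Hsph1, a heat shock protein, rose, from 5.77, 57.4 and 7.91 CPM in skin to 398, 124 and 257 CPM in meninges (log2 fold change 3.45, standard error 0.78, adjusted p = 0.0496), a call lost without Diaphragm 1, Diaphragm 2, Diaphragm 3, Meninges 1, Meninges 2, Meninges 3, Skin 1 or Skin 3 (up to 0.154). Not all early genes differed: Egr1 was at 98.2, 181 and 384 and 258, 741 and 219 CPM, with overlap (adjusted p = 0.523). Junb was at 1.22, 3.69 and 8.51 and 87.6, 69.3 and 22.8 CPM, without overlap, and was not called (adjusted p = 0.0923). When Meninges 1 was the only meningeal library the median of the list was -0.97. The sources used here do not give the time from dissection to sorting, and its part in these levels was not tested.

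The promoters of Zfp36 and Dusp1 are shown because they were the only promoters of the 8 called early genes with a match to the CArG box (bound by serum response factor) or to the cAMP response element, TGACGTCA. Capitals mark the CArG box of Zfp36, 58 bases before the start (chr7:28379229-28379428, minus strand), and the cAMP response element of Dusp1, 143 bases before it (chr17:26508473-26508672, minus strand), in RefSeq promoters of GRCm38.p6.

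Zfp36: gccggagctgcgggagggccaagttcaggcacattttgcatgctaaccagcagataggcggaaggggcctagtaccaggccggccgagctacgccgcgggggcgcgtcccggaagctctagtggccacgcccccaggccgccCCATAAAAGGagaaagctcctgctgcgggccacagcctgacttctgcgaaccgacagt

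Dusp1: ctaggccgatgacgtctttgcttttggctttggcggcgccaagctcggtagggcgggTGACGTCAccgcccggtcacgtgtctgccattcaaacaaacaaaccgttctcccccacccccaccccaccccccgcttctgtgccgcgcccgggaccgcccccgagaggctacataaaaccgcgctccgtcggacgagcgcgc

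Each motif was thus found in 12.5% of the 8 called genes, on either strand of the 250 bases before the start. Among all 32851 promoters, the CArG box was found in 1.47% and the cAMP response element in 1.55%. The shares of all promoters are per promoter and those of the called genes per gene, and Hsph1 among them has 2 promoters. The AP-1 site, TGANTCA, was found in none of the 8 and in 6.75% of all promoters. In the called genes of this list and of the interferon list, no match of one motif overlapped a match of another. With 8 genes these shares are a description of single promoters, and the absence of a match says only that these letters are not in this window.

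Genes of nitric oxide, endothelin and vasoactive signalling showed 3 higher and 4 lower members of 35 tested (median 1.03). Both subunits of soluble guanylate cyclase, the receptor for nitric oxide, fell. Gucy1b3 was at 11.8, 5.37 and 10.4 CPM in meninges against 213, 143 and 194 CPM in skin (log2 fold change -4.32, standard error 0.55, adjusted p = 0.00220), and Gucy1a3 at 13.6, 10.8 and 38.8 against 319, 275 and 142 CPM (log2 fold change -3.54, standard error 0.59, adjusted p = 0.0106). Ece1, the enzyme that matures endothelin, was at 1181, 637 and 942 and 2785, 2987 and 2524 CPM (log2 fold change -1.59, standard error 0.27, adjusted p = 0.0117). These 3 genes were called in all 9 fits, and in none did the tissues overlap. Cav1, which holds the nitric oxide synthase in caveolae, was the other member that fell. Among those that rose, the ligand gene Edn3 had 30.0, 5.19 and 5.60 CPM in meninges and no count in skin, at least 8.31 higher on the log2 scale (adjusted p = 0.0166), in all 9 fits. Ednra, a receptor of endothelin on smooth muscle and mesenchyme, had 17.97, 148 and 171 and 0, 0.690 and 0 CPM (log2 fold change 8.90, standard error 1.84, adjusted p = 0.0303), with Meninges 1 far under Meninges 2 and 3. Dio2, the deiodinase that activates thyroid hormone, was at 14.9, 164 and 235 CPM in meninges without a count in skin, at least 11.76 higher (adjusted p = 0.0158). The calls were lost for Ednra without Meninges 2, Meninges 3, Skin 1 or Skin 3 (adjusted p up to 0.154) and for Dio2 without Meninges 3 (0.0509). The endothelial nitric oxide synthase gene, Nos3, was at 5.57, 0.187 and 1.61 and 89.3, 13.5 and 8.09 CPM and was not called (adjusted p = 0.362).

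Guidance molecules, 52 tested, gave 2 higher and 3 lower members (median 0.99). Plxnd1, the plexin receptor that restrains sprouting endothelium, was at 173, 184 and 239 CPM in meninges against 37.0, 30.1 and 14.3 CPM in skin (log2 fold change 2.87, standard error 0.62, adjusted p = 0.0388), and Nrp1, the coreceptor it can pair with, rose as well. The semaphorin Sema6a was at 591, 516 and 497 and 1858, 1103 and 1337 CPM (log2 fold change -1.42, standard error 0.27, adjusted p = 0.0177), and Sema3a and Efnb2 fell too. The 2 receptor genes thus rose and the 3 ligand genes fell. The call of Plxnd1 was lost without Diaphragm 3, Meninges 1, Meninges 2, Meninges 3, Skin 1, Skin 2 or Skin 3 (adjusted p up to 0.136), and that of Sema6a without Meninges 2, Meninges 3 or Skin 1 (up to 0.0893). In the NOTCH pathway 1 of 25 rose and 1 fell (median 0.57): Dtx1, given above, and Notch3, the receptor of mural cells, at 15.7, 43.7 and 63.0 against 0, 0.812 and 0.0457 CPM (log2 fold change 7.13, standard error 1.41, adjusted p = 0.0235), lost without Meninges 2, Meninges 3 or Skin 3 (up to 0.0716).

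Regulators of the cytoskeleton gave 2 higher and 4 lower members of 62 tested (median 0.44). Wipf3, a WASP-interacting protein of actin assembly, had the smallest adjusted p of all genes that fell, at 48.3, 27.5 and 57.0 CPM in meninges against 1097, 818 and 872 CPM in skin (log2 fold change -4.39, standard error 0.37, adjusted p = 0.000105). Vim, the intermediate filament vimentin of endothelium and mesenchyme, was at 380, 215 and 269 and 1260, 1686 and 1598 CPM (log2 fold change -2.40, standard error 0.28, adjusted p = 0.00186). The giant scaffold protein gene Ahnak was at 3026, 3418 and 3673 and 7805, 7495 and 6940 CPM (log2 fold change -1.14, standard error 0.19, adjusted p = 0.0106). For Wipf3, Vim and Ahnak the call held in all 9 fits. Ahnak2, a relative of Ahnak, was at 207, 90.6 and 105 and 711, 467 and 811 CPM (log2 fold change -2.30, standard error 0.40, adjusted p = 0.0117), lost without Meninges 3 (adjusted p = 0.0605). Of those that rose, Cnn2, a calponin, was at 21.4, 58.8 and 53.5 and 0, 0.406 and 0 CPM (log2 fold change 8.31, standard error 1.78, adjusted p = 0.0365), and Wasf3, a WAVE actin nucleation factor, at 33.0, 44.4 and 14.9 and 0, 0.0406 and 0 CPM (adjusted p = 0.0329). These calls were lost for Cnn2 without Meninges 2, Meninges 3, Skin 1 or Skin 3 (up to 0.132) and for Wasf3 without Meninges 1, Meninges 2, Meninges 3, Skin 1, Skin 2 or Skin 3 (up to 0.136). Tanc2, a scaffold protein, and Lrrc1, a polarity protein, fell in all 9 fits, at 169, 102 and 156 against 1239, 755 and 1547 CPM and 14.2, 22.7 and 15.4 against 312, 200 and 536 CPM (log2 fold changes -3.05 and -4.33, adjusted p = 0.00220 and 0.00232).

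Matrix genes moved in both directions. Of 59 tested genes of basement membrane and matrix glycoproteins, 3 rose and 2 fell (median 1.56). Thbs1, the matricellular protein thrombospondin-1, was at 885, 1130 and 1593 CPM in meninges against 67.0, 69.7 and 175 CPM in skin (log2 fold change 3.53, standard error 0.46, adjusted p = 0.00232), and Thbs2, its fibroblast relative, at 95.3, 361 and 448 and 0.542, 2.72 and 0 CPM (log2 fold change 8.11, standard error 1.5, adjusted p = 0.0166). Thbs1 was called in all 9 fits, and the call of Thbs2 was lost without Meninges 3 or Skin 1 (adjusted p up to 0.0558). Tnxb, the matrix glycoprotein tenascin-X, was at 42.3, 34.5 and 17.3 and 846, 425 and 507 CPM (log2 fold change -4.24, standard error 0.45, adjusted p = 0.000852) and fell in all 9 fits. Eln, the elastin gene, was at 76.6, 85.2 and 61.3 and 300, 306 and 411 CPM (log2 fold change -2.19, standard error 0.36, adjusted p = 0.0103), lost without Meninges 3 (0.0605). Tgfbi, a matrix protein induced by TGF-beta, was the only one of 47 tested TGF-beta and BMP genes called, at 43.5, 31.6 and 49.3 against 529, 413 and 738 CPM (log2 fold change -3.75, standard error 0.41, adjusted p = 0.00118), lower in all 9 fits (median of the list 0.68). Of 33 collagens 1 rose, Col3a1, and none fell (median 1.73). Col3a1 had 128, 1144 and 910 CPM in meninges and 47.8, 146 and 80.1 CPM in skin (log2 fold change 3.0, standard error 0.68, adjusted p = 0.0496), Meninges 1 lying under Skin 2. The call of Col3a1 was lost without Diaphragm 2, Meninges 2, Meninges 3, Skin 1 or Skin 3 (adjusted p up to 0.170). The chains of type I collagen, Col1a1 at 543, 2917 and 2847 against 10.4, 240 and 260 CPM and Col1a2 at 488, 2574 and 2614 against 20.3, 211 and 254 CPM, were not called (adjusted p = 0.0757 and 0.0518). With Meninges 1 as the only meningeal library the median over the collagens was 0.11.

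Of 40 metalloproteinases and their inhibitors, 5 rose and 2 fell (median 1.31). Mmp13, a collagenase of bone and remodelling matrix, had 17.0, 947 and 335 CPM in meninges and no count in skin, at least 13.33 higher on the log2 scale (adjusted p = 0.00220). It was called in all 9 fits, although Meninges 1 stood far under the other meningeal libraries. Adamts15 and Adam23, of the adamalysin families, were at 78.2, 57.9 and 85.3 and 28.9, 98.5 and 42.2 CPM in meninges against 0, 0.365 and 0 and 0, 0 and 0.183 CPM in skin (log2 fold changes 9.18 and 9.81, adjusted p = 0.0302 and 0.0159). Adamts2, the procollagen N-proteinase, was at 42.5, 345 and 309 and 1.93, 1.54 and 0 CPM (log2 fold change 7.63, standard error 1.58, adjusted p = 0.0303), and Adamtsl2, a secreted relative, at 28.2, 47.8 and 35.8 CPM with no count in skin (adjusted p = 0.0343). Meninges 1 was the lowest meningeal library for Adam23, Adamts2 and Adamtsl2. Calls were lost for Adam23 without Meninges 2 (adjusted p = 0.0726), for Adamts2 without Meninges 2, Meninges 3, Skin 1 or Skin 2 (up to 0.0992), for Adamts15 without Meninges 1, Meninges 2, Meninges 3, Skin 1 or Skin 3 (up to 0.0990) and for Adamtsl2 without Meninges 1, Meninges 2, Meninges 3, Skin 1, Skin 2 or Skin 3 (up to 0.140). The inhibitors Timp3, at 1940, 1498 and 1710 against 3893, 3642 and 5213 CPM (log2 fold change -1.31, standard error 0.22, adjusted p = 0.0117), and Timp2, at 1035, 976 and 1302 against 2585, 2267 and 2772 CPM (log2 fold change -1.20, standard error 0.23, adjusted p = 0.0180), fell. For neither inhibitor did the tissues overlap. The median of the list was 0.17 with Meninges 1 as the only meningeal library. The call of Timp3 held in all 9 fits and that of Timp2 was lost without Meninges 2, Skin 1 or Skin 3 (up to 0.0645).

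Among serpins, complement and coagulation genes, 4 of 43 rose and 2 fell (median 1.0). Serpinf1, which encodes the antiangiogenic factor PEDF, was at 153, 1036 and 822 CPM in meninges against 38.9, 24.8 and 4.25 CPM in skin (log2 fold change 4.89, standard error 0.85, adjusted p = 0.0122), in all 9 fits, with Meninges 1 the lowest of the meningeal libraries. The complement protease gene C1s1 was at 3.13, 110 and 47.7 against 0, 0.162 and 0.274 CPM (log2 fold change 8.51, standard error 1.56, adjusted p = 0.0159). Serpina3n, a serpin of the acute phase, fell, at 5.35, 2.94 and 9.89 against 314, 258 and 174 CPM (log2 fold change -5.36, standard error 1.01, adjusted p = 0.0177). Serpina3n lies in a cluster of similar genes and C1s1 has a close copy, so both counts are uncertain. The coagulation factor gene F5 rose as well, at 35.6, 14.1 and 6.90 CPM with no count in skin (adjusted p = 0.0445), and Cd55, a membrane inhibitor of complement, fell, at 63.5, 24.4 and 33.4 against 165, 171 and 139 CPM (log2 fold change -1.97, standard error 0.44, adjusted p = 0.0484). The calls were lost for C1s1 without Meninges 2 (adjusted p = 0.0542), for Serpina3n without Meninges 1, Meninges 2 or Meninges 3 (up to 0.0779), for F5 without Diaphragm 1, Diaphragm 2, Meninges 1, Meninges 2, Meninges 3, Skin 1, Skin 2 or Skin 3 (up to 0.102) and for Cd55 without Diaphragm 1, Diaphragm 2, Diaphragm 3, Meninges 2, Meninges 3, Skin 1, Skin 2 or Skin 3 (up to 0.200). In the redox list 2 of 39 rose and 1 fell (median 0.15). Gpx3, the secreted glutathione peroxidase, was at 432, 3301 and 3121 against 89.9, 82.3 and 61.5 CPM (log2 fold change 4.87, standard error 0.62, adjusted p = 0.00220), called in all 9 fits, with Meninges 1 the lowest meningeal library and still above each skin library. Duox2, a hydrogen peroxide-forming dual oxidase, fell, at 24.0, 0.625 and 23.7 against 599, 393 and 319 CPM (log2 fold change -4.76, standard error 0.93, adjusted p = 0.0219), a call lost without Meninges 3 (0.0605).

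In the list for the WNT pathway 4 of 38 tested genes rose and none fell (median 1.22). Sfrp4, a secreted WNT antagonist, had 53.4, 132 and 113 CPM in meninges, a single count in Skin 1 and none elsewhere in skin or diaphragm (adjusted p = 0.00232), and was called in all 9 fits. The receptor Fzd7 had 83.9, 248 and 169 and 0, 1.46 and 0.640 CPM (log2 fold change 7.89, standard error 1.61, adjusted p = 0.0282). Ndnf, a secreted factor counted on this list, had 19.6, 109 and 55.0 CPM in meninges and no count in skin. Nkd2, an intracellular antagonist of the pathway, had 14.7, 223 and 36.7 CPM in meninges and no count in skin. Ndnf and Nkd2 were at least 10.52 and 11.06 higher on the log2 scale (adjusted p = 0.0145 and 0.0484). The 4 genes were lowest in Meninges 1. Calls were lost for Fzd7 without Meninges 2, Meninges 3 or Skin 3 (adjusted p up to 0.109), for Ndnf without Meninges 2 or Meninges 3 (up to 0.127) and for Nkd2 without Meninges 2, Meninges 3, Skin 1, Skin 2 or Skin 3 (up to 0.255). When Meninges 1 was the only meningeal library the median of the list was 0.37.

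Solute carriers and other transporters gave 4 higher and no lower members of 42 tested (median 1.38). Ttr, transthyretin, the thyroid hormone carrier that choroid plexus epithelium secretes into cerebrospinal fluid, had the smallest adjusted p of all genes. It was at 510, 529 and 429 CPM in meninges with no count in skin, at least 13.52 higher on the log2 scale (adjusted p = 1.87e-05), and at 0.0369, 0 and 0.0716 CPM in the 3 diaphragm libraries. Slc38a2, a neutral amino acid transporter, was at 881, 1247 and 1437 and 222, 370 and 385 CPM (log2 fold change 1.87, standard error 0.34, adjusted p = 0.0159), and Slc47a1, a cation extruder also known from arachnoid cells, at 46.7, 55.8 and 83.6 CPM with no count in skin (at least 10.58 higher, adjusted p = 0.0110). Ttr was even over the meningeal libraries and called in all 9 fits. The call of Slc38a2 was lost without Meninges 3 or Skin 1 (adjusted p up to 0.0722) and that of Slc47a1 without Meninges 3 (0.0681). Of the 23 choroid plexus markers, 19 were tested, 4 rose and none fell (median 3.97): Ttr, Aqp1, F5 and Enpp2. Enpp2, the lysophospholipase autotaxin, was at 269, 299 and 311 and 23.1, 42.3 and 56.5 CPM (log2 fold change 2.85, standard error 0.65, adjusted p = 0.0494), lost without Meninges 1, Meninges 2, Meninges 3, Skin 1, Skin 2 or Skin 3 (up to 0.154). Of the 19 tested markers, 17 had a positive log2 fold change and 2 a negative one. Levels differed between members. Clic6 was at 5.38, 17.0 and 4.23 CPM and Folr1 at 2.50, 0 and 0 CPM in meninges, both without a count in skin. Kl was at 18.8, 10.7 and 51.0 and 0.0387, 0.0406 and 0 CPM. The part of choroid plexus RNA in the level of Ttr was not tested.

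Genes of cranial mesenchyme had the highest median of the 34 lists of function. Of 37 tested transcription factors of cranial and mesenchymal patterning, 5 rose and 1 fell, with a median of 5.18, or 5.13 with the 14 genes that had no count in 1 tissue set at their bounds. Those 14 passed the filter on low counts only through the tissues where they had counts. The height of this median, and its rank, therefore depend in part on the filter. Prrx1, a factor of limb and head mesenchyme, was at 92.9, 418 and 235 CPM in meninges against 10.8, 4.83 and 13.2 CPM in skin (log2 fold change 4.70, standard error 0.87, adjusted p = 0.0168). Alx4, a homeobox factor of skull development, was at 4.60, 141 and 37.9 CPM, and Zic4, a zinc finger factor of dorsal brain and meninges, at 6.70, 56.3 and 46.9 CPM, neither with a count in skin or diaphragm (at least 10.49 and 9.81 higher on the log2 scale, adjusted p = 0.0275 and 0.0451). Foxd1, a forkhead factor of meningeal and kidney stroma, was at 4.32, 79.9 and 30.3 CPM and Tbx3, a T-box factor, at 0.438, 9.59 and 18.3 CPM, again with no count in skin (adjusted p = 0.0496 and 0.0406). In each of the 5 genes Meninges 1 was the lowest meningeal library. The calls were lost for Prrx1 without Meninges 2, Meninges 3 or Skin 1 (adjusted p up to 0.0992), for Alx4 without Meninges 2, Meninges 3, Skin 1 or Skin 3 (up to 0.262), for Zic4 without Meninges 2, Meninges 3, Skin 1, Skin 2 or Skin 3 (up to 0.211), for Foxd1 without Meninges 2, Meninges 3, Skin 1, Skin 2 or Skin 3 (up to 0.302) and for Tbx3 without Diaphragm 1, Diaphragm 2, Diaphragm 3, Meninges 2, Meninges 3, Skin 1, Skin 2 or Skin 3 (up to 0.112). Glis3, a zinc finger factor of the GLI-similar family, fell in all 9 fits, at 8.55, 8.16 and 17.6 against 229, 132 and 166 CPM (log2 fold change -3.94, standard error 0.57, adjusted p = 0.00542). HOX genes, which pattern the trunk and limbs, gave no edgeR call among 16 tested (median -0.79), though 8 had an unadjusted p under 0.05, and DESeq2 called 3 and limma voom 1. Hoxd8 was at 75.1, 9.87 and 41.2 and 170, 129 and 77.6 CPM and Hoxd9 at 38.8, 0.531 and 14.9 and 26.9, 200 and 78.9 CPM (adjusted p = 0.340 and 0.327).

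Markers of other cell types made up 14 of the 111 genes that rose and none of the 85 that fell. How many of all genes tested are such markers was not counted, so these counts have no background beside them. The counts by list below can be read against the 0.748% of all genes tested that rose and the 0.573% that fell. Of 21 fibroblast markers tested 2 rose, Col3a1 and Thbs2, and the median log2 fold change was 3.0, or 0.55 with Meninges 1 as the only meningeal library. Of 12 markers of meningeal and arachnoid fibroblasts 4 rose, Slc47a1, Foxd1, Alx4 and Zic4 (median 9.56, or 6.27 with the 7 genes at 0 in 1 tissue set at their bounds). As for the cranial factors, the filter sets part of this median. Of 9 bone and cartilage markers 3 rose (median 4.05). Alpl, alkaline phosphatase, was at 103, 265 and 241 against 0, 0.284 and 0 CPM (log2 fold change 10.98, standard error 1.31, adjusted p = 0.00186), in all 9 fits. Runx2, the master factor of osteoblasts, was at 79.1, 563 and 339 against 0.271, 5.07 and 13.4 CPM (log2 fold change 5.71, standard error 1.16, adjusted p = 0.0280), and the matrix protein gene Spp1 at 1.91, 228 and 24.8 against 0, 0 and 0.0457 CPM (adjusted p = 0.0122). Meninges 2 was the highest library for all 3. The osteocalcin gene Bglap, a marker of mature osteoblasts, had counts in Meninges 2 alone among the 6 libraries, at 0, 0.0937 and 0 CPM. Calls were lost for Runx2 without Meninges 2, Meninges 3 or Skin 2 (adjusted p up to 0.113) and for Spp1 without Meninges 2 (0.104). Of 14 mural markers 1 rose, Notch3 (median 4.60), and Rgs5, a pericyte marker, was at 184, 454 and 466 and 0, 11.2 and 0 CPM without passing (adjusted p = 0.0757). No leukocyte marker of 7 tested was called by edgeR (1 had an unadjusted p under 0.05, DESeq2 called 1 and limma voom 0), and Aif1, a macrophage marker, was at 22.8, 0.344 and 1.27 CPM in meninges. All 7 had a positive log2 fold change (median 1.21). The mast cell protease Mcpt4 had 0, 56.1 and 0.0264 CPM, nearly all of it in Meninges 2. The part of these cell types in the other genes that rose was not tested.

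Many called genes differed among the meningeal libraries in the direction of these markers. Meninges 1 was the lowest of the 3 for 70 of the 111 genes that rose (63.1%), against 33.5% of all genes tested, and the highest for 18 (16.2%, against 32.4%). The median log2 ratio of Meninges 2 and 3 to Meninges 1 was 1.01 over the genes that rose and 0.171 over all genes tested. It was more than 2-fold for 56 of the 111 genes that rose, Mmp13, Gpx3, Spp1 and Alx4 among them, and more than 2-fold the other way for 7, Edn3, Ifi203, F5 and Insr among them. Over all 14831 genes tested the ratio was more than 2-fold for 4277 and more than 2-fold the other way for 2542. By list, the median ratio was 2.0 for fibroblast, 3.25 for bone and 1.53 for mural markers, and 0.324 for choroid plexus markers. It was -0.739 for LEC-defining genes, -0.868 for blood endothelial genes, -0.0713 for interferon response genes and -0.0986 for immediate early genes. Over the genes that fell the median ratio was -0.321, and Meninges 1 was the highest of the 3 for 45 of the 85 (52.9%).

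**Figure D4:**
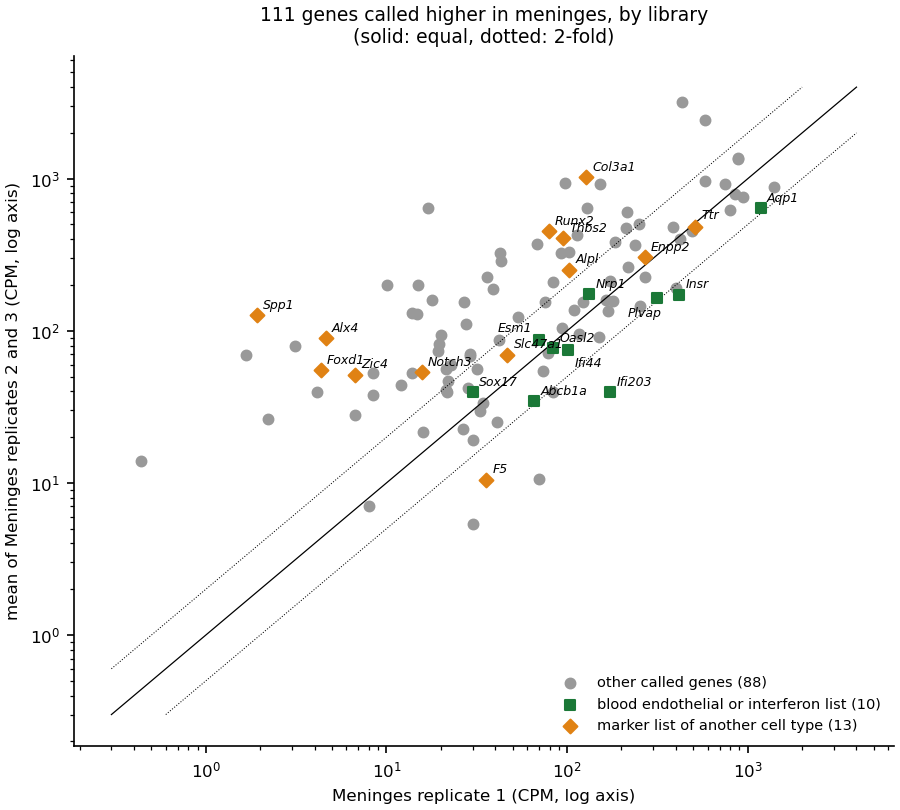
Mean level in Meninges 2 and 3 against the level in Meninges 1 for the 111 genes called higher in meninges, in CPM on log axes, with lines of equality (solid) and of a 2-fold difference (dotted). Marker genes of other cell types (diamonds, 13 genes not on the other lists) lie mostly above the upper dotted line, and the 10 blood endothelial or interferon genes (squares) lie near or under the line of equality.

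Metabolic and proliferation genes gave no calls. None of 21 glycolysis genes, 58 nuclear genes of the respiratory chain or 22 cell cycle genes was called by edgeR, and their medians were 0.11, 0.03 and -0.06. An unadjusted p under 0.05 was found for 1, 0 and 4 of them, DESeq2 called 0, 0 and 1, and limma voom 0 in each list. Gapdh was at 112, 83.3 and 175 and 151, 178 and 61.5 CPM. Of 31 junction genes tested, 1 rose, Jam2, an adhesion molecule of endothelial junctions, at 41.1, 24.9 and 25.03 against 0.503, 0.162 and 0 CPM (log2 fold change 7.05, standard error 1.19, adjusted p = 0.0110), in all 9 fits, and the median was -0.11. VE-cadherin, Cdh5, was at 1183, 312 and 852 and 714, 853 and 965 CPM, with overlap (adjusted p = 0.958). Among nuclear receptors and lipid genes 1 of 51 rose (median -0.01), Pltp, the phospholipid transfer protein, at 74.0, 9.12 and 99.2 CPM with no count in skin (at least 10.57 higher on the log2 scale, adjusted p = 0.00889), lost without Meninges 3 (0.0511). Of 20 integrin genes 2 rose and none fell (median 0.05), the collagen-binding alpha chains Itga1, at 255, 110 and 181 against 22.3, 37.1 and 8.41 CPM (log2 fold change 3.01, standard error 0.63, adjusted p = 0.0329), and Itga11, at 10.1, 241 and 161 CPM with no count in skin (at least 11.71 higher on the log2 scale, adjusted p = 0.0122). The call of Itga1 was lost without Meninges 1, Meninges 3, Skin 1 or Skin 3 (up to 0.101) and that of Itga11 without Meninges 2 (0.0542).

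The remaining lists held few calls. Of 34 channel and ion signalling genes 2 rose, Aqp1 and Atp1b1, and 1 fell, Clca3a1 (median 0.60). Atp1b1, the beta chain of the sodium pump, was at 116, 51.6 and 140 CPM in meninges and 0, 0 and 0.0457 CPM in skin (adjusted p = 0.0107), in all 9 fits. Of 32 genes of the FGF, PDGF and EGF families 1 rose and none fell (median 1.25). It was Gpc3, a heparan sulfate proteoglycan that modulates growth factor signals, at 6.73, 11.7 and 44.0 CPM with no count in skin (at least 9.06 higher on the log2 scale, adjusted p = 0.0406), lost without Meninges 2, Meninges 3, Skin 1, Skin 2 or Skin 3 (up to 0.126). Of 38 chemokine and leukocyte adhesion genes Ackr3 alone was called. Their median was 0.98, or -0.15 with Meninges 1 as the only meningeal library. In that fit the medians of several other lists also changed by more than 1.5 times or changed sign. They were 0.71 for matrix glycoproteins, 0.66 for serpins, complement and coagulation, 0.20 for TGF-beta and BMP, 0.09 for NOTCH, 0.15 for cytoskeletal, 0.35 for transporter and 0.19 for FGF, PDGF and EGF genes. For cranial transcription factors the median was 3.07, and for the redox, glycolysis and respiratory chain lists it was -0.06, -0.24 and -0.22. The medians of HOX, nuclear receptor and lipid, and cell cycle genes were lower than in the main fit, at -1.91, -0.62 and -0.12. Those of integrin and junction genes were higher, at 0.17 and 0.06. The median of the collecting vessel and valve genes ranged from -0.66 to 0.03 over the other tests, scalings, filters and left-out libraries tried.

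**Figure D5:**
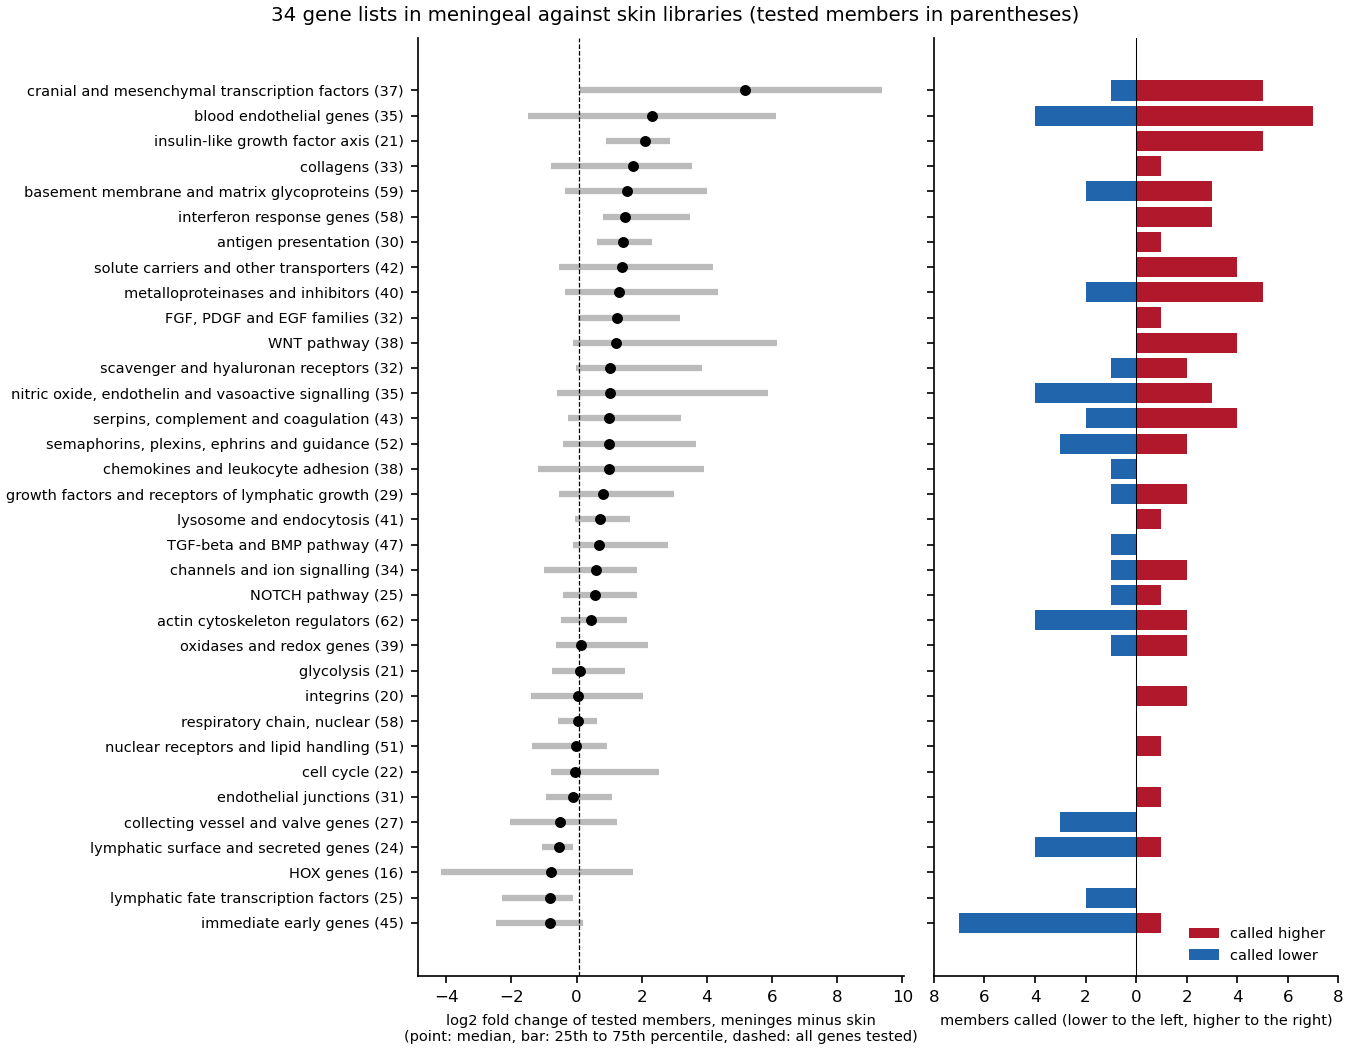
Log2 fold changes, meninges minus skin, of the tested members of 34 gene lists (left, point for the median, bar for the interquartile range, dashed line for the median of all genes tested, 0.08) and the number of members called higher or lower (right). Cranial transcription factors have the highest median, 5.18, blood endothelial genes the most members called higher, 7, and immediate early genes the lowest median, -0.83, with 7 members called lower.

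The diaphragm libraries, which the contrast did not use for its means, lay between the other tissues for most called genes. The diaphragm mean was between the meningeal and skin means for 91 of the 111 genes that rose, beyond meninges for 13 and under skin for 7. On the log2 scale it was nearer to meninges for 67 and nearer to skin for 44. For the 85 genes that fell it was between for 79 and beyond skin for 6, and nearer to skin for 70. A middle position is largely fixed by choosing the genes for the distance between the outer groups. Genes with the diaphragm near skin included Wipf3, at 432, 466 and 518 CPM, and Dtx1, at 110, 189 and 195 CPM in Diaphragm 1, 2 and 3. Genes with the diaphragm beyond meninges included Jam2, at 225, 71.5 and 56.6 CPM, and Edn3, at 67.2, 41.1 and 18.3 CPM. Stab2 was at 218, 44.5 and 37.4 CPM and Plvap at 28.0, 13.7 and 22.9 CPM, each under the lowest meningeal library, and Plvap in Diaphragm 2 lay within the skin range.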

How the data were processed

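Cells were sorted as CD45-CD31+PDPN+. RNA was extracted with a PicoPure kit and amplified with an Ovation kit, per the labels' protocols. The values are deposited counts of reads per gene, whole numbers with no normalization by the authors, for which the submitters' processing notes name HTSeq, STAR, FastQC and the mouse build mm9. The sources used here give neither tool versions nor the annotation, the strand setting or the treatment of reads that match several genes. Counts of near-identical, overlapping or antisense genes are uncertain. Of the symbols, 22 had been turned into dates. The table named 15831 of 23018 genes, and 7100 more were named from the reference by identifier. Promoter sequences are from RefSeq on GRCm38.p6, another build.

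All 9 libraries were fitted together with 1 mean per tissue in edgeR 4.0.16 (R 4.3.3; filterByExpr, TMM, glmQLFit, glmQLFTest), and meninges minus skin was tested. A gene was called when its p, adjusted over the 14831 genes tested by Benjamini-Hochberg, was under 0.05, and all p-values in the text are from this test unless another is named. CPM are counts per 1000000 of the TMM-scaled library size, given per library or as a log2 fold change with its standard error. The standard error was computed back from the test, as the absolute log2 fold change divided by the square root of its F statistic. It is therefore approximate. Where a tissue had no count, a bound used a floor of 3 counts over its 3 libraries, which covers counting error only. Genes with 1 to 3 counts in a tissue are given as levels.

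The members and lists were chosen with earlier results of these data known. Lists are described by counts and medians, with no set test. Named genes are 7 fixed genes, the 12 highest and 12 lowest called by log2 fold change at an average log2 CPM of at least 3 without overlap, the 10 called in each direction with the smallest adjusted p, up to 5 called members per list and, where fewer than 2 were called, its 2 most abundant. Not each of them is printed, and others named (among them Reln, Stab1, Nrp2, Kdr, Vegfc, Igf1, Sox17, Emcn, Cav1, Dusp1, Hsph1, Egr1, Junb, Ednra, Nos3, Cnn2, Foxc2, Ifitm3, the class I genes and single markers) were chosen after their values were seen. Alternatives were DESeq2 1.42.0, limma voom (limma 3.58.1), other scalings and filters, glmTreat, a robust fit, 2 tissues only, a replicate block and each library left out. A few genes are not reported here. The scripts were tested on simulated counts. Tables and plots used Python 3.11.15, pandas 2.3.3 and matplotlib 3.10.9.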

Additional observations from a re-analysis of the deposited data

How the results depend on the processing

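The main test called 111 genes higher and 85 lower in meninges. DESeq2 called 764 and 352, limma voom 254 and 160, edgeR without a filter on low counts 401 and 209, and glmTreat at a log2 fold change of 1 called 61 and 32. With Meninges 1 as the only meningeal library, an alternative chosen after seeing the data in which its spread is assumed to be that of the other groups, the counts were 33 and 25. Leaving out each of the 9 libraries in turn gave 38 to 157 higher and 36 to 97 lower. The higher count fell to 46 without Meninges 2, 38 without Meninges 3, 70 without Skin 1 and 74 without Skin 3, and the lower count to 49, 36, 54 and 55. The replicate block gave 139 and 92. Deviations from the tissue mean in same-numbered meningeal and skin libraries had correlations of 0.0512, 0.0196 and -0.00832. Those of differently numbered libraries ran from -0.0565 to 0.0393. With 3 libraries a tissue, such values cannot decide whether a number marks a shared animal or day. Higher genes were 56.6% of the calls, 68.5% by DESeq2 and 67.4% without Skin 2. No scaling moved the median of all genes by more than 0.0127. None of the 94 named genes that were called changed direction in any alternative, which follows largely from choosing genes called on the same counts. Of the 94, 48 lost the call without Meninges 3, 38 without Meninges 2, 31 without Skin 1 and 5 with the replicate block. The causes of these changes were not tested. Counts in different libraries of a tissue differed far beyond sampling noise, and with 3 libraries a tissue a moderate difference may not pass the test.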

Other observations

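Of the 196 genes called between meninges and skin, 97 were on none of the lists of function or cell type. Among these, 12 that rose and 14 that fell were called in the full fit and without each of the 9 libraries in turn. The genes given here, mt-Rnr2 apart, were chosen from them after their values were seen. Shisa3, an endoplasmic reticulum adaptor, was at 213, 551 and 662 CPM in Meninges 1, 2 and 3 and at 0.0387, 1.30 and 0 CPM in Skin 1, 2 and 3 (log2 fold change 10.04, standard error 1.70, adjusted p = 0.0112). All 3 diaphragm libraries were near the skin level, at 0.111, 0 and 1.33 CPM. Pcdh7, a protocadherin of cell contacts, was at 179, 115 and 201 and 6.00, 7.10 and 2.51 CPM (log2 fold change 4.99, standard error 0.78, adjusted p = 0.00743), and Meninges 1 lay between the other meningeal libraries. Nav3, a microtubule-binding neuron navigator, was at 75.5, 148 and 161 and 2.36, 6.13 and 6.398 CPM (log2 fold change 4.69, standard error 0.72, adjusted p = 0.00743). Tmem176a, a membrane protein gene, was at 83.2, 58.6 and 20.7 CPM with no count in skin, at least 10.30 higher on the log2 scale (adjusted p = 0.00561). For Tmem176a, unlike the fibroblast marker sum, Meninges 1 was the highest meningeal library. Cd38, the NAD-consuming ectoenzyme, was likewise highest in Meninges 1, at 69.9, 5.56 and 15.6 CPM, against 0, 0.122 and 0 CPM in skin, where its total was 3 counts. Olfml3 and Ddr2, an extracellular glycoprotein and a collagen receptor kinase, had the opposite order, at 43.2, 332 and 246 and 68.0, 425 and 320 CPM in meninges against 1.90, 0.325 and 0.137 and 16.8, 12.99 and 11.3 CPM in skin. The fibroblast markers were also lowest in Meninges 1, and their part in these differences was not tested.

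Of the genes that were lower in meninges, Ugcg was nearly even over the 3 meningeal libraries. It encodes the glucosylceramide synthase and was at 183, 186 and 208 CPM in meninges and 802, 576 and 710 CPM in skin (log2 fold change -1.86, standard error 0.29, adjusted p = 0.00813). Tmod2, a capping protein of actin pointed ends, was at 199, 67.8 and 111 CPM in meninges against 929, 711 and 893 CPM in skin (log2 fold change -2.75, standard error 0.43, adjusted p = 0.00809). Syne1, which links the nucleus to the cytoskeleton, was at 289, 207 and 189 and 1365, 845 and 1773 CPM (log2 fold change -2.54, standard error 0.40, adjusted p = 0.00743). Cacna1e, a subunit of voltage-gated calcium channels, was at 43.8, 30.8 and 48.4 and 344, 181 and 369 CPM (log2 fold change -2.86, standard error 0.47, adjusted p = 0.00934), and its diaphragm libraries, at 32.3, 53.1 and 46.6 CPM, were near the meningeal level. The mitochondrial ribosomal RNA mt-Rnr2 took 118477, 54207 and 99779 CPM in meninges and 168938, 198626 and 219660 CPM in skin (log2 fold change -1.11, standard error 0.25, adjusted p = 0.0461). Its call was lost without Meninges 2, Meninges 3, Skin 1, Skin 2 or Skin 3 (adjusted p up to 0.135), and also with upper-quartile factors, the 2 tissues alone, a robust fit, DESeq2 or glmTreat (up to 0.747).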
